A study of Mus musculus with 15 samples.

Results

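The clustered histone genes of the mouse were followed in the podocyte fraction of the kidney. They are the protein-coding genes in the deposited count table whose symbol in GENCODE M21 starts with Hist1h, Hist2h, Hist3h or Hist4h, and 65 of the 46078 genes in the table met that rule. In M21, 67 genes carry such a symbol, and 2 of them were not analysed here. The libraries came from male C57BL/6J mice. Young mice were 4 months old and not injected. Aged mice were 21 months old at the start and received weekly i.p. injections for 8 weeks of 12 mg/kg of either the isotype control antibody IgG2a (2A3) or anti-PD-1 antibody (RMP1-14, here aPD1ab), which blocks the PD-1 receptor; the titles of the aPD1ab samples give 47 days. The young mice therefore differed from the aged mice in age and in having had no injection, and these cannot be told apart. The cortex was digested and cells carrying nephrin were pulled out with magnetic beads, and RNA was sequenced with a TruSeq RNA kit. The labels list 5 mice per group, of which 5 young, 4 IgG2a and 4 aPD1ab libraries could be tied to a column of the table.

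Core histones (H2A, H2B, H3 and H4) form the spool around which DNA is wound, and the linker histone H1 binds where the DNA enters and leaves it. The clustered genes are short, stand in dense clusters and are known as replication-dependent: their transcription rises in S phase under the coactivator NPAT, and their mRNA typically ends in a conserved stem-loop, bound by SLBP, in place of a poly(A) tail. Some clustered genes also give a longer, polyadenylated mRNA in cells that have stopped dividing, as adult podocytes have.

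Of the 65 genes, 52 lay in the Hist1 cluster on chromosome 13 (21715763 to 23934851, GRCm38), 10 in Hist2 on chromosome 3, 2 in Hist3 on chromosome 11 and 1, Hist4h4, on chromosome 6. They comprise 6 H1, 18 H2A, 16 H2B, 12 H3 and 13 H4 genes. The consensus of the histone stem-loop, 16 bases long with some positions left free, was searched on the transcribed strand and found in an annotated transcript of 44 of the 65 (67.7%), against 120 of 21886 other protein-coding genes (0.548%). Among its 8 spellings the most frequent, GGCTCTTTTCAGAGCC, was that of 24 members, and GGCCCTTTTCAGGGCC was that of 7. The stretches of 28 bases below, from the GENCODE M21 transcripts, are shown because they carry the stem-loop of genes described next. Capitals mark the stem-loop. It was not the end of these annotated transcripts, which ran on for 330 bases in Hist1h4i and up to 2445 in Hist4h4.
Hist1h1c: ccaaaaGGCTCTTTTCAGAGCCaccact
Hist3h2a: accaaaGGCTCTTTTCAGAGCCacccac
Hist2h3c2: cacaaaGGCTCTTTTCAGAGCCaccaca
Hist1h4i: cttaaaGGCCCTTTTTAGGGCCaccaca
Hist1h4c: acaaaaGGCCCTTTTCAGGGCCacccac
Hist2h4: cctaacGGCCCTTTTTAGGGCCaaccac
Hist4h4: cacaaaGGCCCTTTTCAGGGCCcacaaa
The stem of Hist1h1c, Hist3h2a and Hist2h3c2 and its loop were spelled alike, and the 4 H4 genes had other spellings, Hist1h4i like Hist2h4 and Hist1h4c like Hist4h4. No match lay in the annotated transcript of Hist1h2bc or Hist2h2be. Hist1h2bc was annotated with 2 exons: exon 1 (chromosome 13, 23684199 to 23684621) held the whole coding stretch of 378 bases, and exon 2 (23692176 to 23692908) held 733 bases of 3′ UTR.

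Promoter sequences (RefSeq, GRCm38.p6; 250 bases before to 50 after the start) were matched to 59 of the 65 genes, in 60 entries. The CCAAT box was present on either strand in 51 of the 60 (85.0%) against 37.4% of all 32851 promoters, and in every H1, H2A, H2B and H3 entry but in only 3 of 12 for H4. TATAAA, searched on both strands, was found in 58.3% of them against 13.6% of all promoters. The octamer ATGCAAAT, also on both strands, was found in 7 of 17 H2A and 6 of 15 H2B entries and in no H1, H3 or H4 entry, against 1.74% of all promoters. Entries of neighbouring H2A and H2B genes on opposite strands can overlap. The same octamer is then counted under both classes, as for Hist1h2ae and Hist1h2bg, so the entries are not all separate promoters. The 4 promoters below belong to Hist1h1c, the gene with the most reads, to Hist1h2ac, and to 2 H4 genes. These H4 genes were called higher in aPD1ab than in young mice. All 3 motifs are in capitals on either strand. Hist1h2bc, the gene with the next most reads, had no promoter entry of its own. The promoter of Hist1h2ac is shown because it spans the whole gap of 250 bases between Hist1h2ac and Hist1h2bc, which are read in opposite directions. Its TATAAA is spelled in the direction of Hist1h2ac.
Hist1h2ac and Hist1h2bc, chr13:23683910-23684209, minus strand: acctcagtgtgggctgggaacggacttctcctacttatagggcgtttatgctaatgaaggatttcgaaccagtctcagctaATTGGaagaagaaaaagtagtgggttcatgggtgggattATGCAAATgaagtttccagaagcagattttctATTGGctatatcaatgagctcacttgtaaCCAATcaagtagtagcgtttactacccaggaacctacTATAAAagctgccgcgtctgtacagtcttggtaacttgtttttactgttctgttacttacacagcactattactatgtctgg
Hist1h1c, chr13:23738557-23738856, plus strand: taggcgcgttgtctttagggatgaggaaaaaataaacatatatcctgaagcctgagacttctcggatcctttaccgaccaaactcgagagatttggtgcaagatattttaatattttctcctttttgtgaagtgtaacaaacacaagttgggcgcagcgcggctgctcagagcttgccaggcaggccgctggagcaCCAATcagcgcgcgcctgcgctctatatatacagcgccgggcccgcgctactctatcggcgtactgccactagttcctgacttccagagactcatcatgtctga
Hist1h4c, chr13:23698409-23698708, minus strand: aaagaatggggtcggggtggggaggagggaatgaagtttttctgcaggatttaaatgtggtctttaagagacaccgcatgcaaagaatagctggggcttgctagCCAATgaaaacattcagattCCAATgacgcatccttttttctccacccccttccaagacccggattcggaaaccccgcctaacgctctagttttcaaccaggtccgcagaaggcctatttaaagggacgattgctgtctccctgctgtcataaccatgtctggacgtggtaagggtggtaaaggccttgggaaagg
Hist1h4i, chr13:22041313-22041612, minus strand: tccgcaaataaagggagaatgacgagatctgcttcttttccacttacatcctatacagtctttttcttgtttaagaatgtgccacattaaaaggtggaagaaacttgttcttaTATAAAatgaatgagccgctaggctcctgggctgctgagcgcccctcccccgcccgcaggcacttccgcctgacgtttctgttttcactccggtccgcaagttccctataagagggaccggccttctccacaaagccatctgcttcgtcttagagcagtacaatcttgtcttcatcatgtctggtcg
A match of these letters is a description of the sequence and not a bound site. The gap shared by Hist1h2ac and Hist1h2bc held all 3 motifs, while that of Hist1h1c and that of Hist1h4c held CCAAT alone.

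Libraries held between 19912969 and 32717100 counted reads, and values are given as CPM, reads scaled to TMM library sizes. Aged IgG2a replicate 1 stood apart from the other 3 IgG2a libraries: its summed proximal tubule markers were at 3241 CPM against 596 to 958, and its macrophage markers at 2471 CPM against 6077 to 7378. In the young libraries these sums ran from 4492 to 7190 and from 1535 to 2869 CPM, and in aPD1ab from 3138 to 9727 and from 1903 to 4252 CPM. All 7 markers of proximal tubule, all 6 of macrophage and all 5 of podocyte had reads in every library. The 5 summed podocyte markers, Nphs1 among them, were at 611 to 1025 CPM in young, 208 to 288 in IgG2a and 162 to 534 in aPD1ab. Podxl made up most of the sum, at 162 to 205 CPM in IgG2a. Nphs1, which encodes nephrin, was at 43.2 to 81.4 CPM in young, 4.15 to 19.4 in IgG2a and 7.61 to 42.8 in aPD1ab. The labelled cells were thus present among several other types. Summed T cell markers ran from 10.6 to 18.2 CPM in young, from 24.5 to 44.8 in IgG2a without replicate 1 (14.2 in replicate 1) and from 12.7 to 17.1 in aPD1ab, and Cd3g was at 0 in some library. Cd4 made up most of this sum, at 11.7 to 35.7 CPM in IgG2a. Cd3e was at 0.369 to 0.916 CPM in young and at 0.352, 1.92, 0.539 and 3.32 CPM in IgG2a mice. The part of these shifts in the results on histone genes was not tested, and in a bulk fraction fewer cells of a type and less RNA per cell cannot be told apart. The counts of genes in comparisons with IgG2a are therefore given with and without replicate 1, and the plot of log2 fold changes shows both values for every tested gene.

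The clustered histone genes were a small and very uneven part of this RNA. Together they took 54250 reads over the 13 libraries, 0.00785% to 0.0264% of the counts in a library. Hist1h1c with 26162 and Hist1h2bc with 17542 reads held 80.6% of them. At the other end, 12 genes had no read in any library, 21 never passed 3 reads in a library, and 38 had a mean under 0.1 CPM. A count of 3 was worth 0.0843 to 0.207 CPM, the level below which these libraries do not tell a gene from 0. Among the genes with no read were Hist1h2aa and Hist1h2ba, the H2A and H2B genes of the testis.

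**Figure D1:**
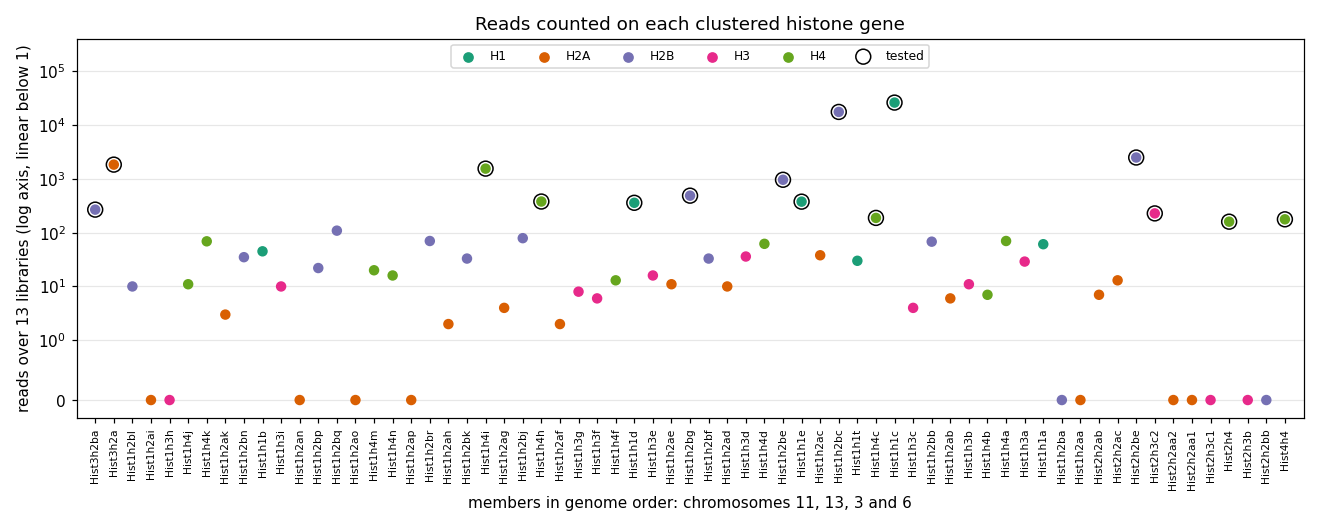
Reads counted on each of the 65 clustered histone genes, summed over 13 libraries (log axis, linear below 1), in genome order within chromosomes 11, 13, 3 and 6 and coloured by histone class; rings mark the 15 genes tested. Hist1h1c (26162) and Hist1h2bc (17542) stand above all others, and 12 genes lie at 0.

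Within the Hist1 cluster most reads lay on one side of its widest gap. The 30 genes between 23531050 and 23934851 took 46977 reads, and the 22 genes between 21715763 and 22043676 took 2088. Hist1h1c and Hist1h2bc both lie in the former stretch, and Hist1h4i, with 1550 reads, at the end of the latter.

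Annotated transcript length and sequence uniqueness went with the counts. Of the 22 genes with over 100 annotated bases after the stem-loop, 12 were expressed enough to be tested, with a median of 168.5 reads. Of the 22 with at most 100 such bases, 1 was tested, with a median of 12 reads. Per kilobase of exonic length the difference was smaller, with medians of 0.246 and 0.0614 CPM. The 21 genes without a stem-loop match had a median of 7 reads, and 2 of them, Hist1h2bc and Hist2h2be, were tested. By annotated exonic length, 10 of 17 genes over 1000 bases were tested, and 1 of 27 genes of at most 500 bases. Their medians per kilobase were 0.184 and 0.0352 CPM. Where at least 50% of the 100-base windows of a gene also occurred in another gene, 1 of 28 was tested and 10 had no read; below 50%, 14 of 37 were tested and 2 had no read. Reads that match several copies can be lost or split in counting, so a low count on a copy such as Hist2h2aa1 or Hist2h2aa2, both with no read, is uncertain. Whether the libraries were made by poly(A) selection is not given in the sources used here, and the part of these features in the counts was not tested.

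Linker histone genes carried 49.8% of the reads on clustered genes, H2B genes 40.9%, H4 genes 5.02%, H2A genes 3.57% and H3 genes 0.641%. Nearly all of the linker share was Hist1h1c, which encodes H1.2. In young mice it was at 64.9, 61.1, 43.9, 53.1 and 79.1 CPM. In IgG2a mice it was at 84.6, 75.4, 92.8 and 60.7 CPM. In aPD1ab mice it was at 77.4, 106, 107 and 114 CPM. Of the aPD1ab libraries, 3 lay above every young library and replicate 1 lay just below the highest young one. Hist1h1e and Hist1h1d, which encode H1.4 and H1.3, were far lower, at 0.583 and 0.146 CPM per kilobase against 50.3 for Hist1h1c; in CPM they ranged from 0.336 to 1.98 and from 0.556 to 1.92 over all libraries. The annotated exons of Hist1h1e overlap those of Hist1h2be by 496 bases on the same strand, so reads there are not assigned with certainty. Hist1h1t, the testis linker histone, had 30 reads in all, and none in any IgG2a library.

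H2A and H2B genes often stand head to head. There were 12 such pairs, with 175 to 305 bases between the starts, and the H2B gene had the higher level per kilobase in 11 of them, while the other pair had no read on either gene. Hist1h2bc was at 44.1 CPM per kilobase and its neighbour Hist1h2ac, across the gap printed above, at 0.0452. Hist2h2be took 2493 reads and its partner Hist2h2ac 13. Hist1h2bg took 487 reads and Hist1h2ae 11. In these 3 pairs the H2B gene was the higher per kilobase in 13 of 13 libraries. In the other pairs with reads, the H2B gene had only 10 to 109 reads over all libraries and was not tested. The H2A gene had no read at all in 5 of the 12 pairs. In several of these 5 pairs most windows of the H2A gene were shared with another gene. Among them were 88.4% of the windows of Hist1h2ai and 92.7% of those of Hist1h2ao, so their zeros are uncertain. Most windows of some untested H2B genes were shared as well, such as 94.8% of Hist1h2bq, so their levels are also uncertain. In contrast, 8.06% of the windows of Hist1h2ac were shared.

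In each comparison a gene was counted as higher or lower when edgeR's quasi-likelihood test gave an adjusted p under 0.05 (Benjamini-Hochberg, over every gene tested) with a change of more than 2-fold. Counts were high enough to test 15 of the 65 genes in at least 1 comparison, and these held 98.0% of the reads on the family. The least abundant tested genes were Hist2h4 (0.503 CPM, 160 reads) and Hist4h4 (0.526 CPM, 177 reads), and the most abundant not tested were Hist1h2bq (0.332 CPM) and Hist1h2bj (0.231 CPM).

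**Figure D2:**
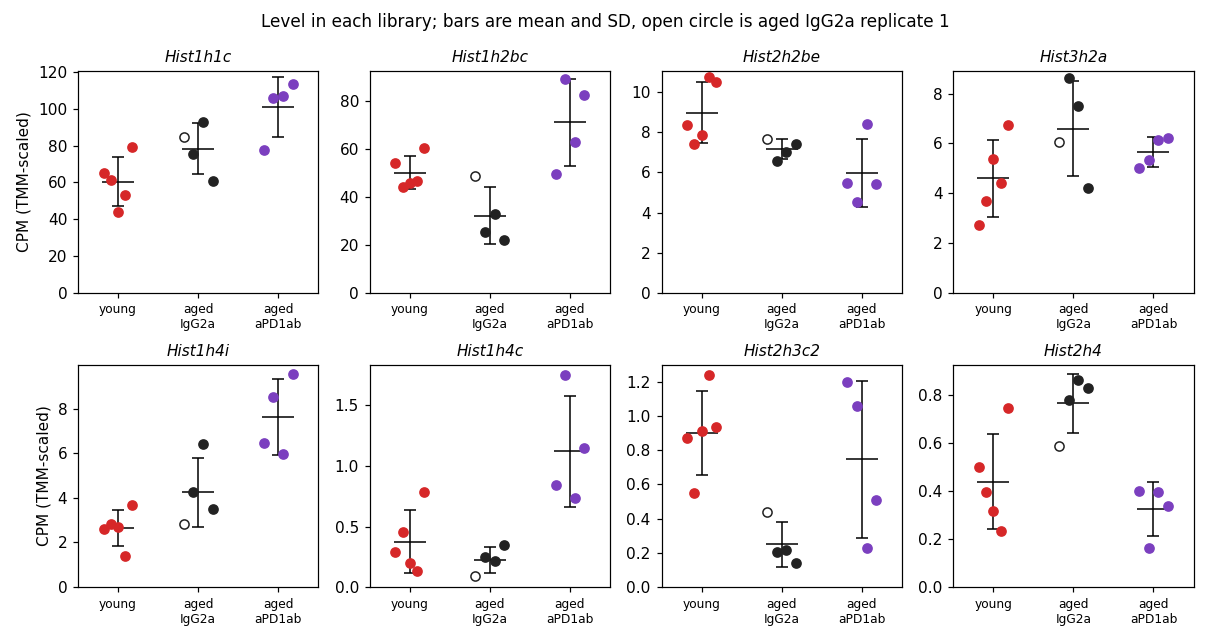
CPM of 8 clustered histone genes in each library of young (n = 5), aged IgG2a (n = 4) and aged aPD1ab (n = 4) mice; points are libraries, bars the mean and SD, and the open circle is aged IgG2a replicate 1. Hist1h2bc is lowest in the 3 other IgG2a libraries (22.05 to 32.6 CPM), and Hist1h4i and Hist1h4c are highest in aPD1ab.

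The comparison of IgG2a with young mice sets aged, injected mice beside young mice that had no injection. Its values are called changes with age for short, though age and injection cannot be told apart. Among the 13 genes tested, 0 were higher and 1, Hist2h3c2, was lower, where 3.89% of all genes tested were higher and 4.59% lower. At an unadjusted p under 0.05 there were 6 of the 13 (46.2%), beside 36.2% of all genes tested. The median log2 fold change (log2FC) of the 13 was 0.55, against 0.038 over all 15953 genes tested. Of the 13 values, 9 were above 0, beside 53.7% of all genes tested. Without replicate 1 the counts were again 0 higher and 1 lower, at a background of 8.16% and 8.92%.

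Hist2h3c2 encodes a replication-dependent H3. Its counts were 21, 18, 23, 37 and 25 in young mice and 15, 5, 4 and 2 in IgG2a mice, or 0.550 to 1.24 CPM against 0.440, 0.204, 0.215 and 0.138 CPM. The groups did not overlap, and the highest IgG2a library was replicate 1. The log2FC was −1.69 (standard error, SE, 0.39, edgeR adjusted p = 0.0231), and −2.16 without replicate 1 (edgeR adjusted p = 0.00249). These are few reads, and 61.6% of the windows of this gene were shared, with no gene sharing more of them than Gm20634. Leaving out young replicate 3 or 4 or IgG2a replicate 2, 3 or 4 put the edgeR adjusted p between 0.0511 and 0.0729.

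Hist1h2bc, the most read core histone gene, was at 54.2, 43.8, 45.5, 46.3 and 60.3 CPM in young mice. In IgG2a mice it was at 48.5 CPM in replicate 1 and at 25.1, 32.6 and 22.05 CPM in the other 3. Those 3 lay below every young library, and replicate 1 lay among the young ones. Its log2FC was −0.58 (SE 0.21, edgeR adjusted p = 0.0767) over all mapped libraries. Without replicate 1 it was −0.85 (SE 0.15, edgeR adjusted p = 0.000915), which passed the test but was under 2-fold.

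The linker gene Hist1h1c did not follow Hist1h2bc: its log2FC was 0.44 (SE 0.17, edgeR adjusted p = 0.0993), and 0.39 without replicate 1 (edgeR adjusted p = 0.114). The ratio of reads on Hist1h2bc to reads on Hist1h1c, which no scaling between libraries can move, was 0.835, 0.718, 1.04, 0.872 and 0.762 in young mice. It was 0.574 in IgG2a replicate 1 and 0.334, 0.352 and 0.363 in the other IgG2a libraries. In aPD1ab mice it was 0.640, 0.839, 0.589 and 0.726. All 4 IgG2a libraries, replicate 1 included, lay below every young and every aPD1ab library. The mean was 0.845 ± 0.123 (SD, n = 5) in young, 0.406 ± 0.113 (SD, n = 4) in IgG2a and 0.698 ± 0.110 (SD, n = 4) in aPD1ab. The 2 genes were set side by side after their values were seen, so the ratio is given without a test.

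**Figure D3:**
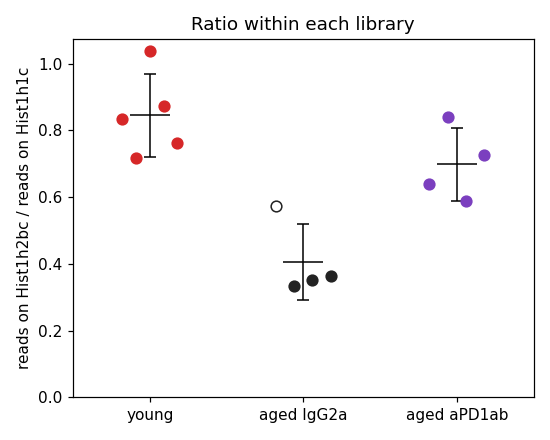
Reads on Hist1h2bc divided by reads on Hist1h1c in each library, with the mean and SD of each group; the open circle is aged IgG2a replicate 1. The IgG2a libraries lie between 0.334 and 0.574, and the young and aPD1ab libraries between 0.589 and 1.04.

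Of the H4 genes, Hist1h4i had a log2FC of 0.75 with age (edgeR adjusted p = 0.111) and Hist2h4 of 0.85 (edgeR adjusted p = 0.120). Without replicate 1, Hist2h4 was at 0.96 (edgeR adjusted p = 0.0793). Hist1h4i was then at 0.90 (edgeR adjusted p = 0.0299), which passed the test under 2-fold, as did Hist3h2ba, an H2B gene, at 0.99 (edgeR adjusted p = 0.0425). Hist2h2be ran from 7.42 to 10.7 CPM in young and from 6.54 to 7.68 CPM in IgG2a mice, a log2FC of −0.26 (edgeR adjusted p = 0.215), and −0.31 without replicate 1 (edgeR adjusted p = 0.128). Hist3h2a, an H2A gene, ran from 2.74 to 6.75 CPM in young and from 4.22 to 8.63 CPM in IgG2a mice, with a log2FC of 0.59 (edgeR adjusted p = 0.161), and 0.63 without replicate 1 (edgeR adjusted p = 0.115). Its annotated exons overlap those of Trim17 by 708 bases on the same strand, so its reads are not assigned with certainty. The values of the other 5 tested genes lay between −0.14 and 0.74 on the log2 scale. Hist1h4d, with 62 reads and too low for the edgeR filter, was called higher by DESeq2 alone (log2FC 2.56, DESeq2 adjusted p = 0.0437), which called 4.99% of all genes higher.

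The comparison of aPD1ab with IgG2a asks what the antibody changes in aged mice. Over all mapped libraries edgeR called 0 of 15 clustered histone genes higher and 0 lower, and 0 of 15530 genes as a whole (0% in either direction), while 6 of the 15 (40.0%) and 4341 of all genes (28.0%) had an unadjusted p under 0.05. DESeq2 called 2 of them higher (background 5.06%), and one edgeR fit of all 3 groups called the same 2, Hist1h2bc and Hist1h4c (background 4.92%). Limma voom with sample quality weights called 3 higher, these and Hist4h4, and 1 lower, Hist2h4, at a background of 8.14% higher and 6.82% lower. Without IgG2a replicate 1, edgeR called 2 higher and 1 lower, where 8.46% of all genes tested were higher and 5.81% lower. The 2 higher genes were Hist1h2bc and Hist1h4c, and the lower one was Hist2h4. The median log2FC of the 15 was 0.24 with replicate 1 and 0.22 without it.

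Hist1h2bc was at 49.6, 88.8, 62.9 and 82.5 CPM in aPD1ab mice, above all 4 IgG2a libraries, although aPD1ab replicate 1 lay just over IgG2a replicate 1 at 48.5 CPM. Its log2FC was 1.14 (SE 0.28, edgeR adjusted p = 0.109), and 1.39 without replicate 1 (SE 0.25, edgeR adjusted p = 0.00830). With DESeq2 on all libraries it was 1.13 (DESeq2 adjusted p = 0.00776).

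Hist1h4c encodes H4. Its counts were 3, 6, 4 and 5 in IgG2a mice and 21, 43, 13 and 41 in aPD1ab mice. In CPM these were 0.0879 to 0.346 against 0.841, 1.75, 0.737 and 1.15. The groups did not overlap, and IgG2a replicate 1 was the lowest of all libraries. The log2FC was 2.38 (SE 0.51, edgeR adjusted p = 0.109), and 2.05 without replicate 1 (edgeR adjusted p = 0.0177). Both Hist1h4c and Hist4h4 were too low to be tested between IgG2a and young mice, so they entered this comparison through the aPD1ab libraries.

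Hist2h4, the H4 gene of the Hist2 cluster, went the other way. It was at 0.586, 0.777, 0.862 and 0.8294 CPM in IgG2a and at 0.400, 0.163, 0.397 and 0.337 CPM in aPD1ab mice, with 4 to 12 reads in each of the latter. All aPD1ab libraries lay below all IgG2a libraries. The log2FC was −1.24 (SE 0.38, edgeR adjusted p = 0.112), and −1.36 without replicate 1 (edgeR adjusted p = 0.0391).

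Among the rest, Hist1h4i had a log2FC of 0.84 (edgeR adjusted p = 0.129), and 0.67 without replicate 1 (edgeR adjusted p = 0.101). Hist2h3c2 had one of 1.50 (edgeR adjusted p = 0.143), and 1.94 without replicate 1 (edgeR adjusted p = 0.0588). Hist4h4 had one of 1.63 (edgeR adjusted p = 0.159), which was 2.25 without IgG2a replicate 1 (edgeR adjusted p = 0.0527) and 0.94 without aPD1ab replicate 2 (edgeR adjusted p = 0.412). In aPD1ab mice Hist2h3c2 was spread from 0.227 to 1.20 CPM, with replicate 3 at the level of the IgG2a libraries. Hist4h4 was at 0.560, 2.24, 0.908 and 0.562 CPM in aPD1ab mice and at 0.645, 0.0818, 0.323 and 0.276 CPM in IgG2a mice, so that replicate 1 of IgG2a lay inside the aPD1ab range. Hist1h1c had a log2FC of 0.36 (edgeR adjusted p = 0.232), and 0.38 without replicate 1 (edgeR adjusted p = 0.165).

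**Figure D4:**
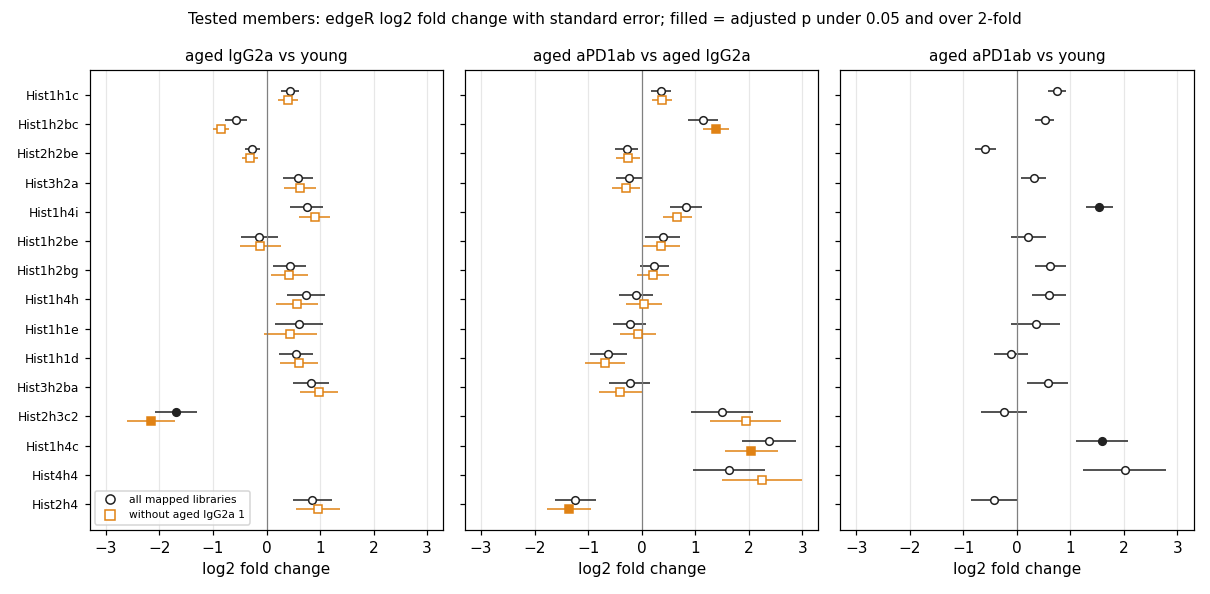
Log2 fold change with its SE for the tested clustered histone genes in the 3 comparisons, ordered from the most abundant at the top, with all mapped libraries (circles) and without aged IgG2a replicate 1 (squares); filled symbols passed an adjusted p under 0.05 and a 2-fold change. Hist2h3c2 is filled with age, Hist1h2bc, Hist1h4c and Hist2h4 in aPD1ab vs IgG2a without replicate 1 alone, and Hist1h4i and Hist1h4c in aPD1ab vs young.

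Between aPD1ab and young mice, which leaves the IgG2a libraries out, 2 of 15 clustered histone genes were higher and 0 lower, where 2.10% of all genes tested were higher and 2.69% lower. Both were H4 genes, Hist1h4i and Hist1h4c. Hist1h4c and Hist4h4 were tested only in the comparisons that hold the aPD1ab libraries, where their mean was highest, so they passed the filter on low counts through the group in which they were high, and the count of 2 of 15 gives no support beyond their values. At an unadjusted p under 0.05 there were 6 of the 15 (40.0%), beside 36.9% of all genes tested. The comparison shares its aPD1ab libraries with the one before and its young libraries with the first, so the 3 are not independent.

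Hist1h4i was at 2.61, 2.81, 2.70, 1.41 and 3.69 CPM in young mice. In aPD1ab mice it was at 6.44, 8.55, 5.96 and 9.56 CPM, with no overlap between the groups. IgG2a mice lay between, at 2.81, 4.25, 6.41 and 3.52 CPM, and overlapped both. The log2FC of aPD1ab over young was 1.54 (SE 0.26, edgeR adjusted p = 0.00512), and the edgeR adjusted p stayed between 0.00606 and 0.0161 whichever library was left out.

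Hist1h4c was at 0.290, 0.458, 0.198, 0.134 and 0.784 CPM in young mice, so that young replicate 5 lay above the lowest aPD1ab library (0.737 CPM). Its log2FC was 1.59 (SE 0.48, edgeR adjusted p = 0.0380). It no longer passed without young replicate 1, 2, 3 or 4 or without aPD1ab replicate 2 or 4, with edgeR adjusted p between 0.0640 and 0.0865.

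Hist1h1c had a log2FC of 0.75 (SE 0.17, edgeR adjusted p = 0.0124), which passed the test but was under 2-fold. Hist1h2bc was at 0.52 (edgeR adjusted p = 0.0524) and Hist2h2be at −0.59 (edgeR adjusted p = 0.0557). In aPD1ab mice Hist2h2be was at 5.48, 4.52, 8.39 and 5.43 CPM, with 3 libraries below every young one. Hist4h4 was at 2.02 (edgeR adjusted p = 0.0864), with 0 to 24 reads in a young library; without aPD1ab replicate 2 it was 1.34 (edgeR adjusted p = 0.229), and without young replicate 2 it was 2.98 (edgeR adjusted p = 0.0322). DESeq2 called 4 genes higher (background 2.60%): Hist1h4i, Hist1h4c, Hist4h4 (2.07, DESeq2 adjusted p = 0.0441) and Hist1h4d (2.62, DESeq2 adjusted p = 0.0243). Hist1h4d was too low for the edgeR filter, with 0 to 2 reads in young and 2 to 16 in aPD1ab libraries. Hist1h4c and Hist4h4 passed that filter only with the aPD1ab libraries, so this count gives no support beyond the values. The other tested H4 genes, Hist1h4h at 0.59 and Hist2h4 at −0.42 in edgeR, were not called.

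Summed by class, H4 genes were at 2.85 to 7.50 CPM in young, 6.80 to 10.5 in IgG2a and 9.87 to 14.5 in aPD1ab mice. IgG2a overlapped both other groups, while young and aPD1ab did not overlap. Hist1h4i, already called between young and aPD1ab, took 1550 of the 2722 reads on H4 genes, so the H4 sum is not separate from that gene. H1 genes were at 45.1 to 82.5, 63.1 to 95.8 and 80.6 to 116 CPM, in the same order of groups. H2B genes were at 55.6 to 79.5 CPM in young, at 62.1 in IgG2a replicate 1 and 35.2 to 46.4 in the other IgG2a libraries, and at 61.5 to 102 in aPD1ab mice. H2A genes were at 3.03 to 6.98, 4.29 to 8.79 and 5.56 to 6.75 CPM, and H3 genes at 0.855 to 1.51, 0.415 to 1.08 and 0.794 to 1.56 CPM. All clustered genes together were at 113 to 178 CPM in young, 111 to 164 in IgG2a and 160 to 234 in aPD1ab mice. Without Hist1h1c and Hist1h2bc these ranges were 23.4 to 38.5, 28.5 to 35.9 and 33.1 to 38.0 CPM.

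The genes around histone supply were set beside the clustered genes as 4 lists. Over all mapped libraries, 3.89% of all genes tested were higher and 4.59% lower with age. In aPD1ab vs young these shares were 2.10% and 2.69%, so counts of 0 or 1 in these short lists lie near them. In aPD1ab vs IgG2a 0 of 15530 genes were called, so a count of 0 there says nothing about a list. Of 11 replication-independent histone variants, which are made throughout the cell cycle, 10 were tested and 0 were higher or lower in any of the 3 comparisons. H3f3b, which encodes H3.3, was at 340 to 515 CPM in young, 440 to 825 in IgG2a and 405.1 to 601 in aPD1ab mice. Its log2FC with age was 0.65 (edgeR adjusted p = 0.0759) and 0.72 without IgG2a replicate 1 (edgeR adjusted p = 0.0211). H1f0, the linker histone of non-dividing cells, was at 131 to 143 CPM in young and 154 to 187 CPM in aPD1ab mice, a log2FC of 0.31 (SE 0.094, edgeR adjusted p = 0.0374).

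Of 18 genes for histone gene transcription and mRNA processing, all 18 were tested and 0 passed both thresholds in any comparison. Npat was at 13.1 to 18.5 CPM in young, 13.3 to 15.5 in IgG2a and 9.53 to 10.9 in aPD1ab mice. The aPD1ab libraries lay below all others, with a log2FC over young of −0.63 (SE 0.12, edgeR adjusted p = 0.00797) and over IgG2a of −0.49 (edgeR adjusted p = 0.109), or −0.52 without replicate 1 (edgeR adjusted p = 0.0190). Slbp had a log2FC with age of 0.44 (SE 0.12, edgeR adjusted p = 0.0335), and 0.51 without replicate 1 (edgeR adjusted p = 0.00194).

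Of 23 histone chaperones, which hand histones to DNA, 1 was higher with age, where 3.89% of all genes tested were, and 0 passed in either other comparison. It was Chaf1b, a subunit of the replication-coupled assembly factor CAF-1, at 1.85 to 2.74 CPM in young and at 2.73, 5.03, 5.76 and 4.29 CPM in IgG2a mice (log2FC 1.04, SE 0.24, edgeR adjusted p = 0.0236). Replicate 1 of IgG2a was the library at the young level. Without it the log2FC of Chaf1b was 1.21 (edgeR adjusted p = 0.000626). Without young replicate 2, 3 or 4 or IgG2a replicate 2, 3 or 4 its edgeR adjusted p was between 0.0514 and 0.0775; with no count filter and in one fit of all groups it was under 2-fold, and with library totals alone it was 0.58 (edgeR adjusted p = 0.0872). Without IgG2a replicate 1, 3 of 23 chaperones were lower in aPD1ab than in IgG2a mice, where 5.81% of all genes tested were, among them Chaf1a, the large subunit of CAF-1 (−1.17, edgeR adjusted p = 0.0250).

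Of 30 genes of S phase and proliferation, 29 were tested with age and against IgG2a, and 0 passed both thresholds over all mapped libraries. With age 27 of 29 values were above 0, beside 53.7% of all genes tested, with a median of 0.65. In aPD1ab against IgG2a 28 of 29 were below 0, with a median of −0.63, where 49.1% of all genes tested were above 0. The 2 comparisons share the IgG2a libraries. Between aPD1ab and young mice 14 values were above and 16 below 0, with a median of −0.083, where 51.3% of all genes tested were above 0. Without IgG2a replicate 1, 6 of 29 genes were higher with age, where 8.16% of all genes tested were, and 10 of 29 were lower in aPD1ab than in IgG2a mice, where 5.81% of all genes tested were. Mki67, which marks cycling cells, was at 15.3 to 32.3 CPM in young, at 12.3, 62.0, 41.0 and 35.3 CPM in IgG2a and at 13.8 to 24.0 CPM in aPD1ab mice. IgG2a replicate 1 held the lowest value of all libraries and the other 3 the highest. The log2FC of aPD1ab over IgG2a was −1.14 (edgeR adjusted p = 0.137), and −1.43 without replicate 1 (edgeR adjusted p = 0.00858). Top2a, the replication-linked topoisomerase, was at −1.13 and −1.41 (edgeR adjusted p = 0.123 and 0.00777), and Mcm3, a subunit of the replicative helicase, at −0.85 and −1.11 (edgeR adjusted p = 0.158 and 0.00967). Mcm5 was at −0.72 and Pcna, the sliding clamp, at −0.44 with all libraries.

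**Figure D5:**
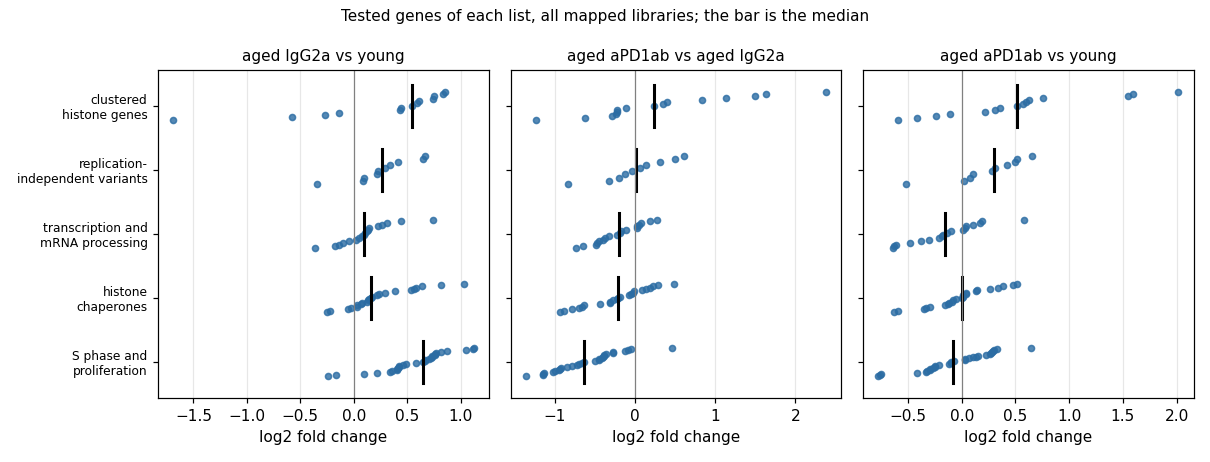
Log2 fold change of each tested gene of the clustered histone genes and of the 4 lists in the 3 comparisons, all mapped libraries; bars are medians. The median of the clustered genes is 0.55, 0.24 and 0.52 from left to right, and that of the S phase list 0.65, −0.63 and −0.083.

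Hist1h2bc and Mki67 thus lay at opposite ends in the same libraries: in the IgG2a libraries other than replicate 1, Hist1h2bc was at its lowest 3 values and Mki67 at its highest 3. Hist2h4, at 0.777 to 0.862 CPM, was higher there than in any other library. These genes were set side by side after their values were seen, and with 3 such libraries this is a description. The part of the cell types in these values was not tested.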

How the data were processed

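Reads of 13 libraries of the podocyte fraction (5 young, 4 IgG2a, 4 aPD1ab) were analysed. The authors deposited raw counts per Ensembl gene; HISAT2, featureCounts and mm10 (GRCm38) are named in the submitters' processing notes, without versions or strand setting. Columns were tied to groups by the numbers printed beside the points of a plot in the study, and 2 columns were not used. Groups were fitted in pairs by edgeR 4.0.16 (quasi-likelihood, robust, TMM, filterByExpr) in R 4.3.3. DESeq2 1.42.0 and limma 3.58.1 were alternatives. Scripts were tested on simulated data. Totals of 19912969 to 32717100 counts give floors of 0.0843 to 0.207 CPM for 3 counts, covering counting error only. Members and lists were chosen with earlier results of these data known. Named members were those called and the 12 tested of highest mean CPM, and the text gives the other tested ones too; from the lists, the 3 most abundant genes of each, Slbp, Npat, Mki67, Top2a, Mcm5 and up to 3 called genes per comparison qualified, and a subset is given. Cell type markers, shared 100-base windows and the stem-loop search used hand-written lists and GENCODE M21 transcripts. Alternatives were other size factors (RLE), DESeq2, voom with sample weights, one fit of 3 groups, no filter, no fold threshold, each library left out and, chosen after seeing the data, library totals alone. Some marker genes are not reported here.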

Additional observations from a re-analysis of the deposited data

Results flagged for a closer look

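In IgG2a mice, Hist1h1e, which encodes the linker histone H1.4, was at 1.76 CPM in replicate 1 and at 1.18 to 1.24 CPM in the other 3 libraries; the gap to the nearest library was 0.897 of the whole range of the group, more than Dixon's test allows in a group of 4 at the 95% level. It was the only flag among 60 groups of values checked, and chance flags about 1 group in 20. Replicate 1 is the library whose tubule and macrophage markers also stood apart, and the part of these in the value was not tested.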

How the results depend on the processing

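No paired analysis was run, because the groups were of different mice and the labels give no pairing between them. Calls over all genes moved with these settings too. With age, 621 of 15953 genes were higher in edgeR, 896 of 17940 by DESeq2 and 1174 of 15953 by voom. Without IgG2a replicate 1 they were 1323 of 16216. In aPD1ab vs IgG2a, 0 of 15530 genes were lower in edgeR, 352 by DESeq2, 1059 by voom and 313 in one fit of all groups. Without IgG2a replicate 1, 917 of 15770 were lower. Clustered genes counted as higher or lower changed as follows. With age, 1 was higher by DESeq2 and 1 by voom, against 0 in edgeR, and leaving out a library gave 0 higher and 0 to 1 lower, with Hist2h3c2 lost without young replicate 3 or 4 or IgG2a replicate 2, 3 or 4. For aPD1ab vs IgG2a, 2 were higher by DESeq2, 3 by voom and 2 in one fit of all groups, 1 was lower by voom, and leaving out a library gave 0 to 2 higher and 0 to 1 lower, above 0 only without IgG2a replicate 1. For aPD1ab vs young, 4 were higher by DESeq2, 1 with library totals alone, and 1 to 2 with a library left out. Over the 4 lists together, genes higher with age numbered 1 in edgeR, 4 without the fold threshold (and 1 lower), 3 by DESeq2, 5 by voom, 0 without the count filter, 0 with library totals alone and 0 to 8 with a library left out, 8 being without IgG2a replicate 1 and 0 without young replicate 2, 3 or 4 or IgG2a replicate 2, 3 or 4. Genes lower in aPD1ab than IgG2a numbered 0 in edgeR, 3 by DESeq2, 8 by voom, 2 in one fit of all groups and 0 to 13 with a library left out, 13 being without IgG2a replicate 1. For aPD1ab vs young, 8 were higher and 8 lower without the fold threshold.

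Directions of log2 fold changes turned for genes near 0. Library totals alone, which moved the median of all genes to −0.38 with age, 0.24 for aPD1ab vs IgG2a and −0.11 for aPD1ab vs young, turned Hist3h2ba to 0.072, Hist3h2a to 0.00038, Hist1h4h to 0.15 and Hist1h1e to 0.022 (aPD1ab vs IgG2a), H1f0 to −0.11 and Top2a to −0.067 (age), and Slbp to −0.095 and Pcna to −0.019 (aPD1ab vs young). Under that scaling the share of higher among called genes was 14.3% with age and 28.0% for aPD1ab vs young, against 45.9% and 43.9% with TMM. Voom turned Hist1h4h to 0.23 (aPD1ab vs IgG2a) and Hist1h2be to 0.021 (age). With a library left out, the ranges that crossed 0 were, for aPD1ab vs IgG2a, −0.40 to 0.0096 for Hist3h2ba and −0.31 to 0.039 for Hist1h4h; with age, −0.41 to 0.072 for Hist1h2be; and for aPD1ab vs young, −0.28 to 0.015 for Hist1h1d, −0.56 to 0.029 for Hist2h3c2, −0.048 to 0.16 for Slbp, −0.23 to 0.023 for Mcm3 and −0.21 to 0.046 for Mcm5. The cause was not tested.

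Low counts limit 50 of the 65 genes, which were too low to test in any comparison, and Hist1h4c, Hist2h4, Hist2h3c2 and Hist4h4 rest on 160 to 228 reads in all.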
